A study of Mus musculus with 23 samples.

Results

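The 6 genes described here, *Grm2*, *Grm3*, *Grm4*, *Grm5*, *Grm7* and *Grm8*, encode metabotropic glutamate receptors, and they were taken by name from the 56941 genes of the count files. Each of the 6 had counts and passed the filter on low counts, after which 14488 genes were compared. Their RNA was measured in primary hippocampal cultures of newborn homozygous Nedd8cKO mice, in which loxP sites flank part of *Nedd8*, the gene of a ubiquitin-like modifier that is attached to cullins and other proteins. The cultures had been infected early in vitro with a lentivirus encoding CRE recombinase tagged with RFP (CRE) or RFP alone (RFP), so that both groups carried the floxed alleles and a virus. The virus used the Synapsin1 promoter, which drives expression in neurons rather than in glia. RNA was harvested on day 12 in vitro by the labels and a day later by Methods. Deposited were 23 libraries, 12 CRE and 11 RFP, from what the library names number as 3 cultures. The sex of the pups and the number of pups behind a library are not given in the labels.

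Metabotropic glutamate receptors are G protein-coupled receptors that respond to glutamate more slowly than the ion channel receptors and tune transmission at the synapse. Group I, here *Grm5*, couples to Gq and phospholipase C, sits around the postsynaptic density and is held there by Homer and Shank scaffolds. Group II (*Grm2* and *Grm3*) and group III (*Grm4*, *Grm7* and *Grm8*) couple to Gi/o proteins, which lower cAMP, and many of them sit in axons, where they reduce transmitter release. *Grm3* is also a receptor of astrocytes, and *Grm2* is known in the hippocampus from dentate granule cells and their mossy fibers.

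In the CRE libraries 4 of the 6 receptor genes were lower than in RFP libraries, *Grm2*, *Grm4*, *Grm5* and *Grm7*, and no receptor gene was higher. *Grm3* and *Grm8* were not called in either direction. A gene was called at an adjusted p under 0.05 in the quasi-likelihood test of edgeR, adjusted by Benjamini-Hochberg over the 14488 genes. Of these 30.2% were called in either direction, and 13.8% were called as lower in CRE. The median log2 fold change was -1.01 over the 6 receptor genes and 0.02 over all genes tested. The comparison used 21 libraries, 11 CRE and 10 RFP, and left out Nedd8Cre3-3 and Nedd8RFP3-2. This is the set of the count table supplied with the paper, while Methods names another pair as removed and no reason was found for leaving out Nedd8RFP3-2, so the results are also given over all libraries. These RNA levels are of whole cultures, in which fewer cells of a type and less RNA per cell cannot be told apart.

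RefSeq promoter windows, 250 bases before to 50 bases after a start site, were found for *Grm2*, *Grm3*, *Grm7* and *Grm8*, while *Grm4* and *Grm5* were not matched. The windows of the group II pair are printed because *Grm2* fell and *Grm3* was not called. They lie at chr9:106656060-106656359 and chr5:9725303-9725602 of GRCm38.p6, both on the minus strand, and are written 5′ to 3′ along the gene. Capitals mark the GC box GGGCGG or its other strand CCGCCC, the letters bound by Sp1-type zinc finger factors.
Grm2: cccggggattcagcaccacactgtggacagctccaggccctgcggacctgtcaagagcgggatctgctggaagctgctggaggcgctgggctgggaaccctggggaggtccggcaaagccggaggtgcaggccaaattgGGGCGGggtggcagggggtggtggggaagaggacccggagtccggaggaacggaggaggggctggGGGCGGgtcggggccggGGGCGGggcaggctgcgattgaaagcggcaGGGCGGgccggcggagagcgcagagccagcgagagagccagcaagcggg
Grm3: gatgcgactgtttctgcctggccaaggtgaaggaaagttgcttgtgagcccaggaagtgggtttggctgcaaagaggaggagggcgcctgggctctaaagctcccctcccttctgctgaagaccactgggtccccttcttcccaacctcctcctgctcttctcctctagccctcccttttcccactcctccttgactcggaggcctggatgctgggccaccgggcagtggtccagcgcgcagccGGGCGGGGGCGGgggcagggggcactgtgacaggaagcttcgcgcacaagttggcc
The GC box was present at 4 places in the *Grm2* window and at 2 adjoining places in the *Grm3* window. It was also present in both windows of *Grm7* (1 match each) and in 1 of the 3 windows of *Grm8*, and 35.7% of all 32851 mouse windows of this length held it. CAGATG (other strand CATCTG) and CAGCTG, the E-box letters of neuronal bHLH factors, were in none of the 7 windows and in 17.2% and 16.3% of all windows. The cAMP response element TGACGTCA and the AP-1 letters TGACTCA were also in none of the 7, against 1.79% and 5.2% of all windows. The *Grm2* window had 22 CpG dinucleotides and 72.0% GC, the *Grm3* window 11 CpG and 63.7% GC, and the median window had 7 CpG and 52.7% GC. The letters of a motif do not show that a factor binds there.

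Assigned counts summed to between 7430401 and 13345552 in the 11 CRE libraries and between 9833872 and 17112815 in the 10 RFP libraries. Nedd8Cre3-3 held 1546796 counts and Nedd8RFP3-2 held 7635735, more than Nedd8Cre1-3, which was kept and had the lowest total of the 21. *Nedd8* itself (chromosome 14, from 55899715 to 55910069, minus strand) had 5.91 to 18.0 CPM in CRE and 44.1 to 76.0 CPM in RFP libraries, where CPM are counts scaled to a common library size with TMM factors. The log2 fold change of *Nedd8* was -2.44 (standard error, SE, 0.17; adjusted p = 6.98e-11), with no overlap between the groups. The antisense coding gene *Gmpr2* overlaps 331 of the 1584 exon bases of *Nedd8* and had 14 to 93 counts in the 21 libraries. *Nedd8* had 75 to 195 counts in CRE libraries, and the part of *Gmpr2* reads in them was not tested. In 3 libraries the deviation of a gene from its mean followed the GC content of its exons, with a Spearman's rho across genes of 0.728 in Nedd8Cre1-3, 0.525 in Nedd8Cre3-3 and 0.398 in Nedd8RFP2-4, while the remaining 20 had -0.309 to 0.092. Genes are no independent replicates, so these values only describe the libraries. The GC content of the receptor exons ran from 41.8% in *Grm5* to 60.9% in *Grm4*. The log2 fold changes of the receptor genes are therefore also given without Nedd8Cre1-3 and Nedd8RFP2-4. Neuron markers were present in every group, with a summed level of 5690 to 6800 CPM in RFP and 3590 to 5640 CPM in CRE libraries. No marker of the lists for neurons, astrocytes, the oligodendrocyte lineage, microglia or vascular cells was at 0 in every library.

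**Figure D1:**
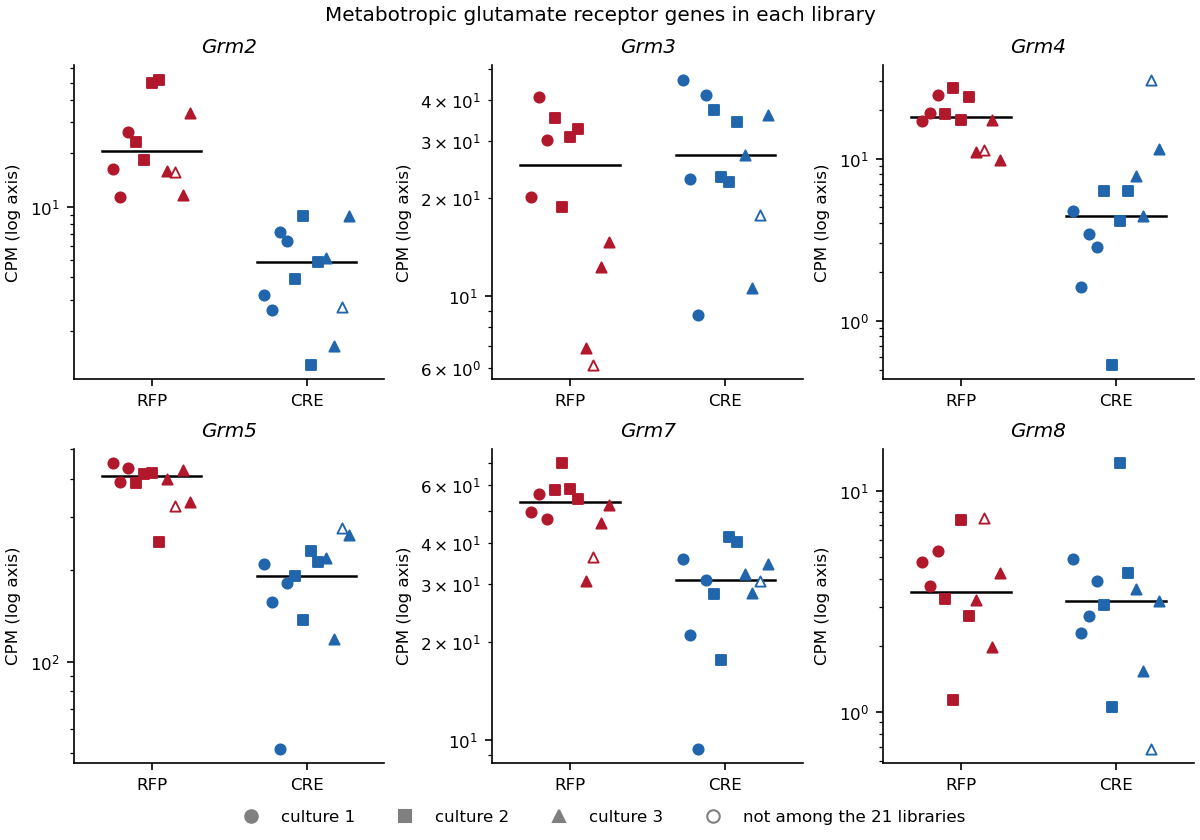
Level of each receptor gene in CPM (log axis) in every RFP (red) and CRE (blue) library, with the median of the 21 libraries as a line, the culture as the shape of the point, and open points for the pair of libraries not compared. All CRE points of *Grm2* lie below all RFP points, while those of *Grm3* and *Grm8* are intermingled with them.

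The group I receptor gene *Grm5* (ENSMUSG00000049583) lies on chromosome 7 of GRCm39 from 87233376 to 87784594, plus strand, with 10 exons in its canonical transcript. It had 248.0 to 449.3 CPM in RFP libraries, with a median of 407.2, and 51.6 to 260.8 CPM in CRE libraries, with a median of 190.6. The ranges of the groups met only through Nedd8Cre3-4 at 260.8 CPM and Nedd8RFP2-4 at 248.0 CPM, and the other 10 CRE libraries were below all RFP values. The log2 fold change was -1.14 (SE 0.18, 95% interval -1.52 to -0.76, adjusted p = 3.12e-05), a level 2.21-fold lower in CRE. The lowest value of all, 51.6 CPM, came from Nedd8Cre1-3, one of the libraries that follow GC content. Without it and Nedd8RFP2-4 the log2 fold change was -1.10 (SE 0.11, adjusted p = 1.03e-08). In Nedd8Cre3-3, which was not compared, *Grm5* had 403 counts, or 275.0 CPM, above the lowest RFP library.

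Genes of the Gq arm, through which *Grm5* signals, were called lower more often than higher. Of 18 tested genes 5 were lower, 2 were higher and 11 were not called, and the median log2 fold change was -0.28, against 0.02 over all genes. Over all genes tested 30.2% were called and 13.8% called as lower, shares to be set beside the counts of this and the later lists. *Prkca*, a protein kinase C that diacylglycerol activates, had a log2 fold change of -0.55 (SE 0.13, adjusted p = 0.00159). *Mgll*, whose product breaks down the endocannabinoid 2-AG made after group I activation, had 166.0 ± 29.5 (SD, n = 10) CPM in RFP against 91.9 ± 29.4 (SD, n = 11) CPM in CRE libraries (log2 fold change -0.87, adjusted p = 0.000262). The higher genes were *Prkcd* (log2 fold change 1.31, SE 0.35, adjusted p = 0.0053), another protein kinase C, at 5.22 CPM in RFP libraries, and *Rgs2*, which shortens Gq signals (log2 fold change 0.69, SE 0.22, adjusted p = 0.0204), which was not called with all 23 libraries (adjusted p = 0.19). Phospholipase C genes were not called, with log2 fold changes of -0.28 for *Plcb1*, -0.44 for *Plcb3* and 0.08 for *Plcb4*.

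Scaffolds of group I receptors were lower in 7 of 10 tested genes and higher in 1, with a median log2 fold change of -0.54. *Ncdn*, neurochondrin, which binds the receptor and supports its place at the membrane, fell from 923.0 ± 182.0 (SD, n = 10) CPM in RFP to 448.0 ± 164.0 (SD, n = 11) CPM in CRE libraries (log2 fold change -1.06, SE 0.16, adjusted p = 1.62e-05). *Homer2*, an adaptor that ties the receptor to Shank proteins and IP3 receptors, fell from 102.0 ± 16.9 to 54.8 ± 15.0 CPM (log2 fold change -0.92, adjusted p = 7.51e-05). *Dlgap1*, a link between PSD-95 and Shank, had a log2 fold change of -0.71 (adjusted p = 4.1e-05). *Homer3* was the higher gene, at 18.4 ± 5.32 CPM in RFP and 27.1 ± 10.5 CPM in CRE libraries (log2 fold change 0.54, adjusted p = 0.0459), a call that held in 13 of 37 alternative fits. With all 23 libraries 5 scaffold genes were lower and 1 was higher. Without culture 2, where 803 of all 14745 genes tested were lower, 3 of the 10 scaffold genes were lower. The summed level of the neuron markers was also lower in CRE libraries, 4 of 10 of them were called lower (2 without culture 2), and their part in the lower levels of the list was not tested.

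The group II receptor genes differed from each other. *Grm2* (ENSMUSG00000023192) lies on chromosome 9 from 106520294 to 106533870, minus strand, and is the shortest of the receptor genes at 13.6 kb. It had 11.4 to 52.0 CPM in RFP libraries, with a median of 20.7, and 1.28 to 8.88 CPM in CRE libraries, with a median of 4.89. Every CRE library lay below every RFP library, also among all 23 libraries, and *Grm2* was the sole receptor gene without overlap, which 2.08% of all genes tested showed in that direction. The log2 fold change was -2.41 (SE 0.34, 95% interval -3.11 to -1.71, adjusted p = 5.54e-06), a level 5.32-fold lower. Raw counts ran from 148 to 837 in RFP and from 15 to 116 in CRE libraries. The highest RFP value, 52.0 CPM, came from Nedd8RFP2-4, and without it and Nedd8Cre1-3 the log2 fold change was -2.30 (SE 0.34, adjusted p = 1.24e-05). Markers of dentate granule cells, the hippocampal neurons best known for *Grm2*, were lower in 4 of 6 genes, or in 2 without culture 1 or 2, and summed to 195.0 to 351.0 CPM in RFP and 72.3 to 268.0 CPM in CRE libraries. Among them *C1ql2* had a log2 fold change of -1.83 (SE 0.32, adjusted p = 9.78e-05) and *Prox1*, the transcription factor that sets granule cell identity, one of -0.66 (SE 0.15, adjusted p = 0.00176). The part of these cells in the *Grm2* level was not tested.

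*Grm3* (ENSMUSG00000003974, chromosome 5, 9534069 to 9776088, minus strand) had 6.92 to 40.9 CPM in RFP libraries, with a median of 25.2, and 8.72 to 46.3 CPM in CRE libraries, with a median of 27.2. The ranges overlapped almost entirely. *Grm3* had a log2 fold change of 0.20 (SE 0.29, 95% interval -0.39 to 0.78, adjusted p = 0.66), so that a level from 0.762 to 1.72 times that of RFP lies within the interval. Without Nedd8Cre1-3 and Nedd8RFP2-4 the log2 fold change was 0.34 (SE 0.29, adjusted p = 0.377). Astrocyte markers, the other main source of *Grm3* in brain tissue, went in both directions, with 4 lower and 3 higher of 10 genes. With all 23 libraries 2 were lower and 3 higher, and without culture 2 none was lower and 1 was higher. Over the 21 libraries lower were *Slc1a2*, the main astrocyte glutamate transporter (log2 fold change -0.79, adjusted p = 0.00134), *S100b* (-1.11, adjusted p = 0.000547) and *Aldh1l1* (-0.68, adjusted p = 0.0199), and higher were *Sox9* (1.02, adjusted p = 0.000107), *Gja1* (0.62, adjusted p = 0.0199) and *Gjb6* (2.00, adjusted p = 0.00196). The summed level of the astrocyte list was 3690 to 7940 CPM in RFP and 1640 to 5280 CPM in CRE libraries.

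Of the group III receptor genes, *Grm4* and *Grm7* fell and *Grm8* was not called. *Grm4* (ENSMUSG00000063239, chromosome 17, 27641361 to 27740377, minus strand) encodes a receptor of presynaptic active zones. It had 9.79 to 27.4 CPM in RFP libraries, with a median of 18.1, and 0.532 to 11.4 CPM in CRE libraries, with a median of 4.41. All CRE values but that of Nedd8Cre3-4 lay under the lowest RFP value. The log2 fold change was -1.96 (SE 0.33, 95% interval -2.63 to -1.29, adjusted p = 4.92e-05), a level 3.88-fold lower. Nedd8Cre3-3 went against this, with 45 *Grm4* counts of its 1546796, or 30.7 CPM, a value higher than in any RFP library. Over all 23 libraries *Grm4* had a log2 fold change of -1.51 (SE 0.39, adjusted p = 0.00486). Without Nedd8Cre1-3 and Nedd8RFP2-4 it was -1.87 (SE 0.34, adjusted p = 0.00013).

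*Grm7* (ENSMUSG00000056755, chromosome 6, 110622542 to 111544191, plus strand), whose receptor has a low affinity for glutamate and sits in the active zone itself, spans 921.6 kb, the longest of the receptor genes. It had 30.5 to 69.9 CPM in RFP libraries, with a median of 53.3, and 9.4 to 41.6 CPM in CRE libraries, with a median of 30.8. The groups overlapped through Nedd8RFP3-1, the lowest RFP library, and 9 of 10 RFP libraries lay above every CRE library. The log2 fold change was -0.87 (SE 0.19, 95% interval -1.26 to -0.48, adjusted p = 0.000891), a level 1.83-fold lower. Without Nedd8Cre1-3, the lowest library, and Nedd8RFP2-4 it was -0.77 (SE 0.15, adjusted p = 0.000128). An antisense long noncoding gene, Gm20387, overlaps 600 of the 5886 exon bases of *Grm7* and had 2 to 63 counts in the 21 libraries, against 69 to 977 for *Grm7*. Overlaps with antisense genes also exist for *Grm2* (Gm28111, 475 bases, at most 12 counts) and *Grm4* (Gm49789, 135 bases, at most 1 count), and the strand setting of the counting is not given in the sources used here.

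*Grm8* (ENSMUSG00000024211, chromosome 6, 27275118 to 28135177, minus strand), another presynaptic group III receptor gene, was the least abundant. It had 1.13 to 7.38 CPM in RFP libraries, with a median of 3.47, and 1.06 to 13.3 CPM in CRE libraries, with a median of 3.18. The highest and the lowest of the 21 values were both CRE libraries of culture 2, Nedd8Cre2-3 with 156 counts and Nedd8Cre2-2 with 14 counts. Its fitted log2 fold change was 0.06 (SE 0.37, 95% interval -0.70 to 0.82, adjusted p = 0.931), and without Nedd8Cre2-3 it was -0.36 (SE 0.32, adjusted p = 0.442). At this depth the 95% interval of the CRE level ran from 0.616 to 1.76 times the RFP level.

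**Figure D2:**
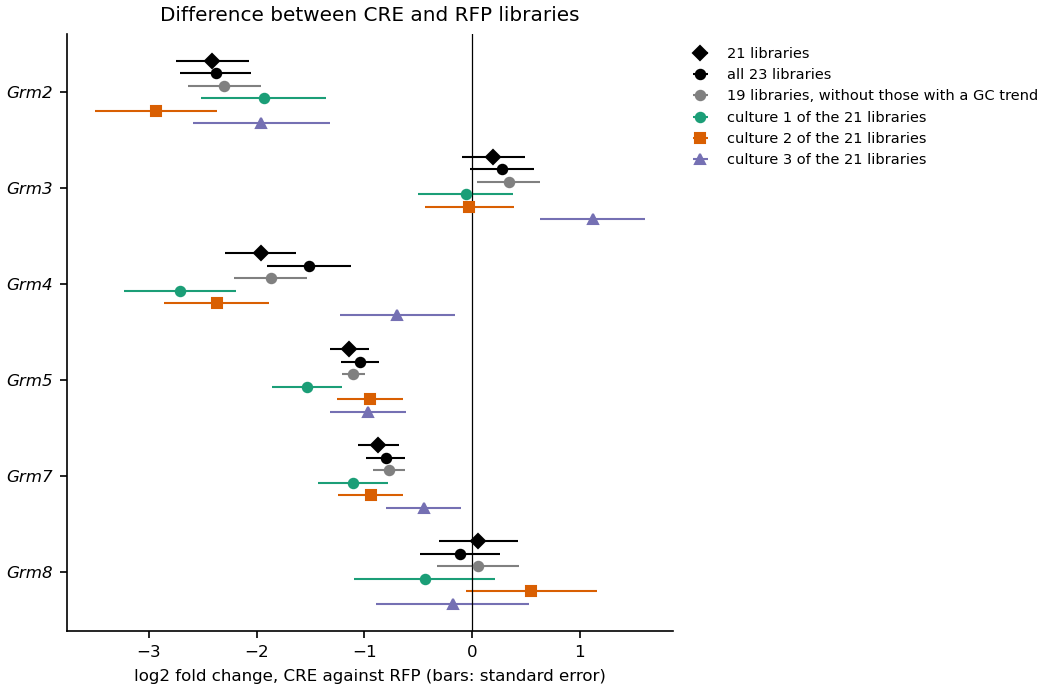
Log2 fold change of each receptor gene between CRE and RFP libraries, with its standard error, over the 21 libraries, all 23 libraries, the 19 libraries without those that follow GC content, and each culture number. *Grm2*, *Grm4*, *Grm5* and *Grm7* lie below 0 in each of these, while the values of *Grm3* and *Grm8* fall on both sides of 0. In culture 3 alone no receptor gene was called.

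The values by culture and the interaction test below compare CRE and RFP libraries with the same culture number. Whether a number names the same culture in both groups is not given. Deviations of same-numbered CRE and RFP cultures from their group means correlated by only 0.027, 0.021 and 0.141. By culture number, *Grm2* had log2 fold changes of -1.93, -2.93 and -1.95 in cultures 1, 2 and 3. Those of *Grm5* were -1.53, -0.95 and -0.96, and those of *Grm7* were -1.11, -0.94 and -0.45. *Grm4* had -2.71 and -2.37 in cultures 1 and 2 and -0.69 in culture 3. Tested within a culture, *Grm2*, *Grm4*, *Grm5* and *Grm7* were called in cultures 1 and 2 and not in culture 3. There the adjusted p (edgeR) was 0.0812 for *Grm2*, 0.549 for *Grm4*, 0.130 for *Grm5* and 0.552 for *Grm7*. In culture 2 it was 0.0477 for *Grm5* and for *Grm7*. Of all genes 1704, 1713 and 713 were called in cultures 1, 2 and 3. In culture 3 the RFP libraries had 9.79 to 17.3 CPM of *Grm4* and the CRE libraries 4.41 to 11.4 CPM, and with Nedd8Cre3-3 and Nedd8RFP3-2 included its value there was 0.03. *Grm3* had -0.06, -0.02 and 1.12, and the RFP libraries of culture 3 had 6.92 to 14.6 CPM, while those of the other cultures had 18.8 to 40.9 CPM. *Grm8* had -0.44, 0.55 and -0.18. A test of the group by culture interaction across all genes called no receptor gene, with an adjusted p of 0.978 for each over the 21 libraries and 0.844 for *Grm4* over all 23. The unadjusted p of *Grm4* was 0.0289 in the 21 and 0.00367 in all 23 libraries. That test called 1 gene over the 21 libraries and 0 over the 23 with edgeR, and 595 and 614 genes had an unadjusted p under 0.05.

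Genes of the Gi/o arm, through which group II and III receptors signal, were lower in 9 and higher in 2 of 28 tested genes. The rest were not called, and the median log2 fold change was -0.17, against 0.02 over all genes. Of all genes tested 30.2% were called in either direction and 13.8% as lower. *Gng3*, a neuronal G protein gamma subunit, fell from 325.0 ± 44.1 (SD, n = 10) CPM in RFP to 173.0 ± 32.5 (SD, n = 11) CPM in CRE libraries (log2 fold change -0.93, SE 0.11, adjusted p = 4.09e-07). *Adcy1*, a calcium-stimulated adenylyl cyclase, fell from 675.0 ± 128.0 to 457.0 ± 88.8 CPM (log2 fold change -0.58, adjusted p = 0.000614). *Kcnj6*, a subunit of the GIRK potassium channels that beta-gamma subunits open, had a log2 fold change of -0.80 (SE 0.20, adjusted p = 0.00411). The higher genes were *Adcy2*, another adenylyl cyclase (log2 fold change 0.51, adjusted p = 0.00105), and *Gnai2*, a Gi alpha subunit (0.45, adjusted p = 0.0194). *Gnao1*, the Go alpha subunit of neurons, had 1080.0 CPM in RFP and 984.0 CPM in CRE libraries and was not called (log2 fold change -0.16, adjusted p = 0.266).

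Over all genes tested 30.2% were called in either direction and 13.8% as lower. Among 7 partner genes of group II and III receptors 2 were lower and none was higher, a number called near the share in either direction. Both encode postsynaptic adhesion proteins that recruit group III receptors across the cleft, *Elfn2* with 201.0 ± 28.5 (SD, n = 10) CPM in RFP against 133.0 ± 45.0 (SD, n = 11) CPM in CRE libraries (log2 fold change -0.61, adjusted p = 0.0043), and *Elfn1* with a log2 fold change of -0.49 (adjusted p = 0.0406). With all 23 libraries neither was called (adjusted p = 0.0527 for *Elfn2* and 0.103 for *Elfn1*), nor without culture 2, and *Elfn1* was called in 21 of 37 alternative fits. *Pick1*, which binds the *Grm7* product, was not called (0.19, adjusted p = 0.517). Of 7 receptor kinases and arrestins, which end receptor signals, *Grk6* (-0.48, adjusted p = 0.018) and *Arrb1* (-0.35, adjusted p = 0.00675) were lower and the other 5 were not called. The number called is likewise near the share over all genes. Without culture 2 neither *Grk6* nor *Arrb1* was called, and with all 23 libraries *Grk6* was not (adjusted p = 0.0895). Over the 37 alternative fits the Gi/o list had 4 to 14 lower and 1 to 4 higher genes, and the Gq list 2 to 7 lower and 0 to 3 higher, both with the fewest lower genes without culture 2. The partner list and the list of kinases and arrestins each had 0 to 3 lower and 0 to 1 higher genes.

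**Figure D3:**
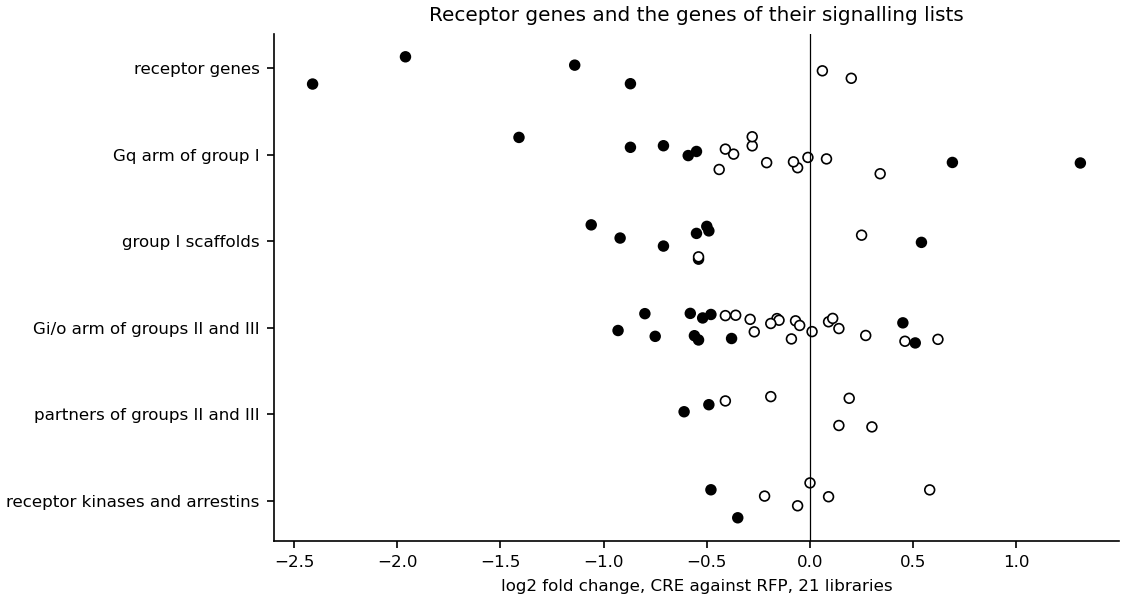
Log2 fold change between CRE and RFP libraries of the 6 receptor genes and of every tested gene in the lists of their signalling partners, filled where called at an adjusted p under 0.05. The scaffolds of group I receptors have 7 filled points below 0 and 1 above, and the Gi/o arm has 9 below and 2 above. Of all genes tested 30.2% were called.

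Per exon length the order of the receptor genes in RFP libraries was *Grm5*, *Grm7*, *Grm3*, *Grm2*, *Grm4* and *Grm8*. The median levels were 38.0, 9.06, 3.73, 2.92, 2.65 and 0.351 CPM per kilobase of merged exons. *Grm5* lay above *Grm7* in 10 of 10 RFP libraries with no overlap of the ranges, and *Grm8* lay below *Grm4* likewise. *Grm3*, *Grm2* and *Grm4* were not separated, since *Grm3* exceeded *Grm2* in 6 of 10 libraries and *Grm2* exceeded *Grm4* in 6 of 10. Among 14449 tested genes with an exon length, *Grm5* lay above 94.8%, *Grm7* above 73.3% and *Grm8* above 7.96%.

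In CRE libraries the order by the median was the same, at 17.8, 5.23, 4.02, 0.69, 0.645 and 0.322 CPM per kilobase. *Grm7* exceeded *Grm3* in 7 of 11 CRE libraries, compared with 10 of 10 in RFP, and *Grm3* exceeded *Grm2* in 11 of 11 with no overlap. *Grm2* exceeded *Grm4* in 4 of 11 and *Grm4* exceeded *Grm8* in 9 of 11, so that the order of *Grm2* and *Grm4* was not settled. The summed level of the 6 genes was 47.7 to 63.6 CPM per kilobase in RFP and 9.49 to 38.7 in CRE libraries, the lowest in Nedd8Cre1-3. *Grm5* made up a median of 64.2% of the sum in RFP and 60.1% in CRE libraries. *Grm3* made up 2.15 to 10.7% (median 6.14%) in RFP and 8.47 to 20.4% (median 15.0%) in CRE libraries. *Grm2* made up a median of 5.16% in RFP and 2.05% in CRE libraries, and *Grm4* 4.76% and 2.75%. These levels rest on merged exons of all annotated transcripts, and use of fewer exons in these cells would raise them.

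**Figure D4:**
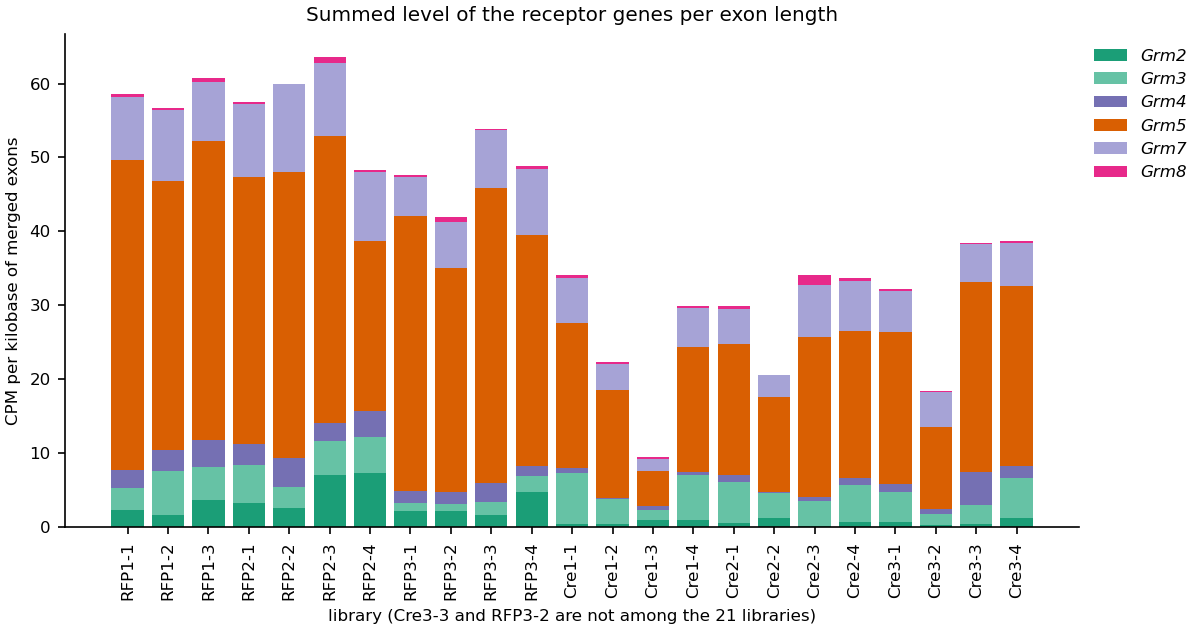
Level of the 6 receptor genes in CPM per kilobase of merged exons, stacked for each library, with RFP libraries on the left and CRE libraries on the right. *Grm5* is the tallest segment in every library, and the sum of each of the 11 compared CRE libraries, 9.49 to 38.7, is below that of the 10 RFP libraries, 47.7 to 63.6.

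Ratios between the receptor genes within a library do not depend on how libraries are scaled. All 15 pairs were compared as the log2 ratio of counts plus 0.5, with two-sided permutation tests of 100000 resamples and adjustment over the 15, and 12 passed. The ratio of *Grm2* to *Grm3* was 0.07 ± 0.92 (SD, n = 10) on the log2 scale in RFP and -2.59 ± 1.08 (SD, n = 11) in CRE, which differ by -2.66 (permutation p = 8e-05, adjusted p = 0.0006). Between libraries of the same culture number this difference was -1.69, -3.06 and -3.12. The ratio of *Grm3* to *Grm4* was -0.66 to 1.09 in RFP and 1.25 to 5.35 in CRE libraries, a mean difference of 2.43 with no overlap of the groups (permutation p = 2e-05, the smallest that 100000 resamples give, adjusted p = 0.0003), and of 2.52, 2.78 and 1.76 within cultures. With all 23 libraries the groups overlapped, with CRE ratios down to -0.78, and the difference was 2.25 (permutation test, adjusted p = 0.0012). *Grm3* also rose relative to *Grm5* by 1.44 and relative to *Grm7* by 1.16 (permutation tests, adjusted p = 0.00084 and 0.00163).

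Among the 4 lower genes, *Grm2* and *Grm4* fell relative to *Grm5* and *Grm7* over the 21 libraries, but not evenly across culture numbers. *Grm2* fell by 1.21 relative to *Grm5* (SE 0.47, permutation test, adjusted p = 0.0268) and relative to *Grm7* from a mean ratio of -1.18 in RFP to -2.68 in CRE libraries (SE of the difference 0.46, adjusted p = 0.00807). *Grm4* fell by 0.99 relative to *Grm5* (SE 0.38, permutation test, adjusted p = 0.0191) and by 1.28 relative to *Grm7* (SE 0.33, adjusted p = 0.00163). In cultures 1, 2 and 3 the difference was -0.25, -2.14 and -1.08 for *Grm2* to *Grm5* and -0.68, -2.07 and -1.70 for *Grm2* to *Grm7*. It was -1.08, -1.86 and 0.28 for *Grm4* to *Grm5*, which turned in culture 3, and -1.51, -1.79 and -0.33 for *Grm4* to *Grm7*. With all 23 libraries the adjusted p of *Grm4* to *Grm5* was 0.0951. The ratios that did not pass were *Grm2* to *Grm4* (difference -0.22, SE 0.55, adjusted p = 0.706), *Grm5* to *Grm7* (-0.29, SE 0.16, adjusted p = 0.09) and *Grm3* to *Grm8* (0.30, SE 0.42, adjusted p = 0.526). The counts of *Grm8* were low, and its ratios to *Grm5* and *Grm7*, with adjusted p = 0.0042 and 0.0283 here, had adjusted p = 0.0841 and 0.189 with all 23 libraries. Without Nedd8Cre1-3 and Nedd8RFP2-4 the ratio of *Grm5* to *Grm7* passed (difference -0.35, permutation test, adjusted p = 0.0334). That of *Grm7* to *Grm8* did not pass there (-0.69, adjusted p = 0.0849).

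**Figure D5:**
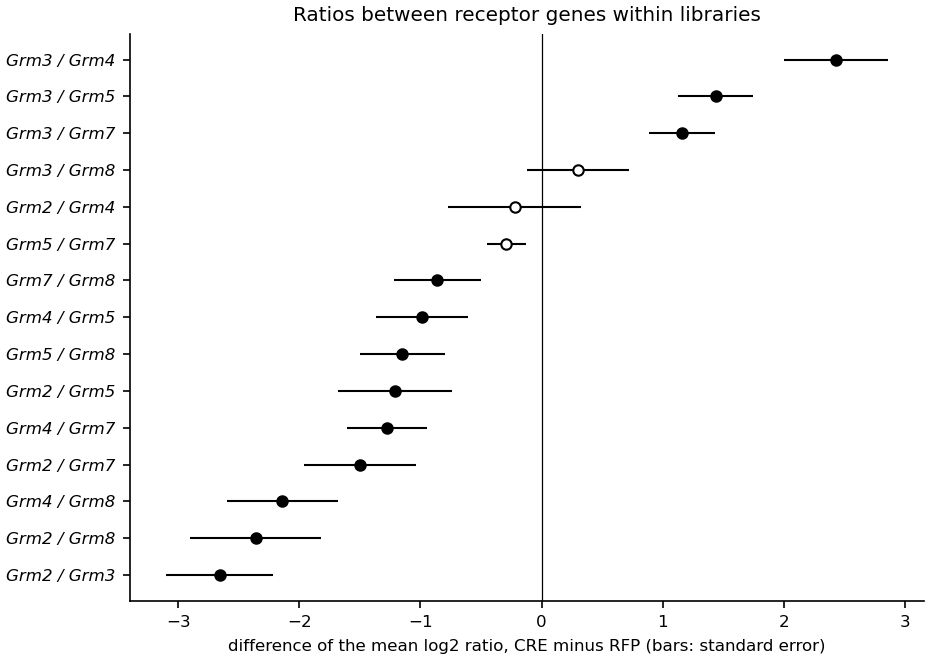
Difference between CRE and RFP libraries in the mean log2 ratio of counts for each of the 15 pairs of receptor genes, with its standard error, filled where the permutation test passed at an adjusted p under 0.05. The ratio of *Grm2* to *Grm3* has the lowest difference, -2.66, and that of *Grm3* to *Grm4* the highest, 2.43.

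Since neuron markers were lower in CRE libraries, each receptor gene was also compared with the mean log2 level of 10 neuron markers and of 10 astrocyte markers in the same library, in 12 permutation tests. Relative to the neuron markers *Grm2* was lower by -1.82 (SE 0.38, adjusted p = 0.00044), *Grm4* by -1.57 (SE 0.31, adjusted p = 0.00024), *Grm5* by -0.75 (SE 0.16, adjusted p = 0.00024) and *Grm7* by -0.45 (SE 0.16, adjusted p = 0.0154), all in log2 units. *Grm3* was higher relative to neuron markers by 0.68 (SE 0.31, permutation test, adjusted p = 0.0468), a call that 18 of 23 alternatives kept. *Grm8* was not called (0.41, SE 0.29, adjusted p = 0.188). These differences were not even across culture numbers, which may not name the same culture in both groups. *Grm4* had -2.08, -2.19 and -0.12 and *Grm7* had -0.73, -0.65 and 0.18, so that *Grm7* was not below the neuron markers in culture 3. *Grm2* had -1.33, -2.56 and -1.38, *Grm5* had -1.18, -0.60 and -0.43, and *Grm3* had 0.26, 0.32 and 1.58.

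Relative to astrocyte markers the same 4 genes were lower, *Grm2* by -2.15, *Grm4* by -1.89, *Grm5* by -1.08 and *Grm7* by -0.78 (permutation tests, adjusted p = 0.00012, 0.00012, 0.00024 and 0.00634), and *Grm3* was not called (0.36, SE 0.24, adjusted p = 0.183). Of 6 markers of glutamatergic neurons 3 were lower and none was higher, with a median log2 fold change of -0.88, and 2 to 5 were lower over the alternative fits, with the fewest using all 23 libraries or leaving out culture 2. Their summed level was 1200.0 to 2150.0 CPM in RFP and 359.0 to 1030.0 CPM in CRE libraries, and it did not overlap. *Slc17a7*, the vesicular glutamate transporter vGlut1, had a log2 fold change of -1.88 (adjusted p = 1.23e-08), and *Neurod6* one of -1.92 (adjusted p = 6.4e-09). GABA neuron markers were higher in 3 and lower in 1 of 10 genes, but higher in 1 and lower in 2 without Nedd8Cre1-3 and Nedd8RFP2-4, and none was called without culture 2. Oligodendrocyte lineage markers were lower in 6 of 9 tested genes, in 3 without culture 1 and in 1 without culture 2, with sums of 678.0 to 1970.0 CPM in RFP and 447.0 to 1980.0 CPM in CRE libraries. Microglia markers were low, with sums of at most 12.5 CPM in the 21 libraries. Vascular and mesenchymal markers summed to 17.6 to 145.0 CPM in RFP and 16.5 to 387.0 CPM in CRE libraries. Of 7 tested genes of that list 1 was higher and 1 was lower, with a median log2 fold change of 0.81. The part of cell composition in the receptor levels was not tested.

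After the mean of each group was removed, the receptor genes varied between libraries with different partners, over the 19 libraries that do not follow GC content. Among the genes most like *Grm5* were *Map2*, which encodes a protein of dendritic microtubules, and *Psd3*, each with a Pearson's r of 0.92. *Grm3* was most like *Itpr2* (0.88), the IP3 receptor of astrocytes, *Slc20a2* (0.88) and *Acsf2* (0.87). *Grm4* was most like *Zc3h7b*, *Slc24a3* and *Arhgap33* (0.89 each), and *Grm7* like *Olig1* (0.84), *Dpp10* (0.84) and *Inka2* (0.83). *Grm2* was most like *Nxph4* (0.80), *Cerox1* (0.79) and *Poll* (0.72), and *Grm8* like *Frmd3* (0.80), *Fgf11* (0.79) and *Mif4gd* (0.79). Among the receptor genes themselves r was 0.70 for *Grm4* and *Grm7*, 0.67 for *Grm4* and *Grm5*, 0.55 for *Grm5* and *Grm8*, 0.53 for *Grm5* and *Grm7* and 0.49 for *Grm3* and *Grm7*, while *Grm2* had -0.06 to 0.37 with the other 5. The like genes were picked as the highest of all genes tested, the libraries share their scaling, and the values are given as a description.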

How the data were processed

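The authors prepared libraries with Illumina Stranded mRNA Prep and sequenced them on a NovaSeq6000. Per the submitters' processing notes, bcl2fastq 2.20.0.422, STAR 2.7.8a and featureCounts 1.5.0-p1 were used with GRCm39, and Methods names Ensembl release 110. The authors deposited whole-number counts per gene, without normalization, and the handling of strand and of reads mapped to several places is not given in the sources used here. GENCODE M39 named 56323 of 56941 identifiers. Cultures were taken from the number that precedes the hyphen in library names. For its RNA expression graphs the paper gives N = 3, counting animals or biological replicates, with 11 RFP and 12 CRE samples. Libraries of a group were therefore not all independent, and p-values measure the spread between libraries, which may be technical. The permutation tests were run over libraries only.

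edgeR 4.0.16 in R 4.3.3 was run on 21 libraries with filterByExpr, TMM, a robust glmQLFit and glmQLFTest. Methods names another pair of removed libraries, Nedd8Cre1-3 and Nedd8Cre3-3, and this set and all 23 were alternatives, among others with DESeq2 1.42.0 and limma 3.58.1. CPM used TMM factors over all 23 libraries. Levels per length used merged GENCODE exons. Permutation tests used scipy 1.17.1. The fits, the permutation test and the correlation ranking were tested on simulated data. Members and gene lists were chosen with earlier results of these data known. Genes named are the receptor genes, *Nedd8*, up to 3 higher and 3 lower genes per list by smallest p, and the 3 most like genes of each receptor gene. Some genes that this rule takes are not reported here. *Plcb1*, *Plcb3*, *Plcb4*, *Gnao1* and *Pick1* were chosen after their values were seen.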

Additional observations from a re-analysis of the deposited data

How the results depend on the processing

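*Grm2*, *Grm4*, *Grm5* and *Grm7* were lower and called in all 37 alternative fits. Their log2 fold changes ran from -2.60 to -1.94, -2.55 to -1.51, -1.25 to -0.77 and -1.05 to -0.72, and their largest adjusted p was 0.00286, 0.00805, 0.00515 and 0.0469. With counts summed per culture number, 3 sums per group, their adjusted p in edgeR was 0.000113, 0.00286, 3.74e-05 and 0.00176. *Grm3* and *Grm8* were called in none. *Grm3* had -0.06 without culture 3. *Grm8* had -0.11 with all 23 libraries, -0.29 without culture 2, -0.14 with limma-voom, -0.04 with sums per culture and -0.05 with the GC trend removed over all 23 libraries, an alternative added after seeing the data. Leaving out single libraries moved *Grm8* between -0.36 (without Nedd8Cre2-3) and 0.22, and it was below 0 also without Nedd8Cre1-1, Nedd8RFP2-2 or Nedd8RFP3-3. The cause was not tested.

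Over all genes 4370 were called, 2374 of them higher. Without culture 2 this was 2114 and without the filter on low counts, where 32701 genes were tested, 6920. Scaling by total counts in place of TMM moved the median log2 fold change of all genes to 0.11, and 65.8% of calls were then higher, against 54.3%. Same-numbered cultures of the groups had correlations of 0.027, 0.021 and 0.141 of their deviations, so the numbers were not taken to pair the samples in the main comparison. The values given by culture number do set same-numbered libraries of the groups against each other. With culture as a replicate block 4267 genes were called, and with culture and library number as a block 3152, where *Grm8* had -0.10. The block changed no call of a receptor gene. Of 15 ratios, 9 to 12 passed over the alternatives, and of 12 comparisons with markers 8 to 10. Low counts limit *Grm8*, with 11 to 156 reads in the 21 libraries.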
